A study of Xenopus tropicalis with 17 samples.

Results

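The genes described here are those whose transcript levels stood highest at stage 25 relative to stages 15 and 35, the tailbud stage, in heterozygous sf3b4 embryos of the frog Xenopus tropicalis. For each gene name, CPM, counts scaled by the library total, was averaged over the 2 heterozygous pools of a stage. Names were ranked by the log2 ratio of the stage 25 mean plus 1 to the larger of the stage 15 and stage 35 means plus 1, called the peak score below. Names beginning with hox, krt or LOC, 10714 of the 26531 in the tables, were not ranked. The 150 highest of the 15817 ranked names are called the members, chosen by these heterozygous levels. Because every heterozygous pool was used to choose them, heterozygous values are given as a description, and tests were made in wild type and null pools only.

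RNA-seq had been carried out on whole embryos, with each library from a pool of 5. Groups were null, heterozygous and wild type for sf3b4, which encodes a subunit of the spliceosome, at stage 15 (neurula), stage 25 (tailbud) and stage 35 (late tailbud). Each group had 2 pools except stage 15 null, which had 1. The labels give neither the mutation nor whether pools came from separate clutches, so p-values measure the spread between these pools, which may be technical.

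Between neurula and tailbud stages a frog embryo lengthens, its segmented somites become contracting muscle, its epidermis differentiates and it prepares to leave the egg membranes. Genes active in a short part of this period include secreted proteases that digest the membranes at hatching and genes of the first muscle fibres. In RNA from whole embryos, fewer cells of a type and less RNA per cell cannot be told apart.

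The mutated gene itself was called in neither comparison of null with wild type pools. At stage 25, sf3b4 stood at 110.4 and 113 CPM in null pools, against 144 and 146 CPM in wild type pools, and the log2 fold change was -0.38 (SE 0.20, edgeR adjusted p 0.433). At stage 35 it stood at 74.8 and 80.2 CPM in null pools, against 83.6 and 107 CPM in wild type pools, with a log2 fold change of -0.30 (SE 0.20, edgeR adjusted p 0.394). Library totals ran from 11714437 to 21639041 counts. The second stage 15 wild type pool lay apart on the first principal component, at -94.3 against -119 to -112 for the other 4 stage 15 libraries. The stage 35 null pools lay at 92.7 and 97.5 on that component, below the range of 110.7 to 114 of the other 4 stage 35 libraries and on the side of stage 25.

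In heterozygous pools the peak score of members ran from 1.23 to 6.25, with a median of 1.54. The last members by rank were tekt3 and nr2e1, both at 1.23, and the first names outside were vstm5 at 1.23 and s100a11 at 1.21. All 150 members passed the filter on low counts that left 17742 genes for testing. As an account of what these genes are, 88 members were placed by known function in 10 groups after the members had been seen, and 62 were not placed. The groups were astacin proteases (6), muscle structure and regulation (18), fuel use (7), heat shock and chaperones (7), redox (7), immune (6), extracellular matrix (12), epithelial (8), cilium (5), and regulators and signals (12).

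The 10 highest peak scores belonged to astl2g, astl3a.1, astl3a.3, hspa1b, gjd4, hsp70, phkg1, tll1, angptl7 and pdlim3. The first 3 and tll1 encode astacins, secreted zinc proteases whose family includes the hatching enzymes of frogs and fish. The genes hspa1b and hsp70 encode chaperones of the HSP70 family. In muscle, gjd4 encodes a connexin, phkg1 the catalytic subunit of phosphorylase kinase and pdlim3 a protein of the Z line, while angptl7 encodes a secreted angiopoietin-like protein. Members that were neighbours in the order of RefSeq genes made 4 pairs, astl3a.1 with astl3a.3, astl2f with astl2g, cav2 with cav1, and dnajc5b with trim55. Reads of such similar astacin and HSP70 copies may be split uncertainly between them.

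The first question was whether the peak forms outside the pools that defined it. It did for most members in both genotypes. In null pools 133 of the 150 members rose between stages 15 and 25, against 17.2% of all tested genes, and in wild type pools 137 rose, against 23.4% of all tested genes. None fell in either genotype (edgeR adjusted p under 0.05; background falls, 11.5% in null and 16.9% in wild type). The median log2 fold change of members was 2.56 in null pools and 2.02 in wild type pools, while medians over all tested genes were 0.13 and 0.07. With members near a count of 0 at stage 15 set at their lower bounds, the medians were 2.47 and 2.02. Both null values rest on 1 stage 15 pool, assumed to vary like the other groups.

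The second stage 15 wild type pool had more of these transcripts than the rest of its stage. Of the 150 members, 123 (82.0%) had their highest stage 15 value in that pool, as did 30.3% of all tested genes. Summed over members, it held 8683 CPM, and the other 4 stage 15 libraries held 4706 to 6141 CPM. Without that pool 145 members rose in wild type with a median of 2.69, and without the first wild type pool 106 rose with a median of 1.43.

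**Figure D1:**
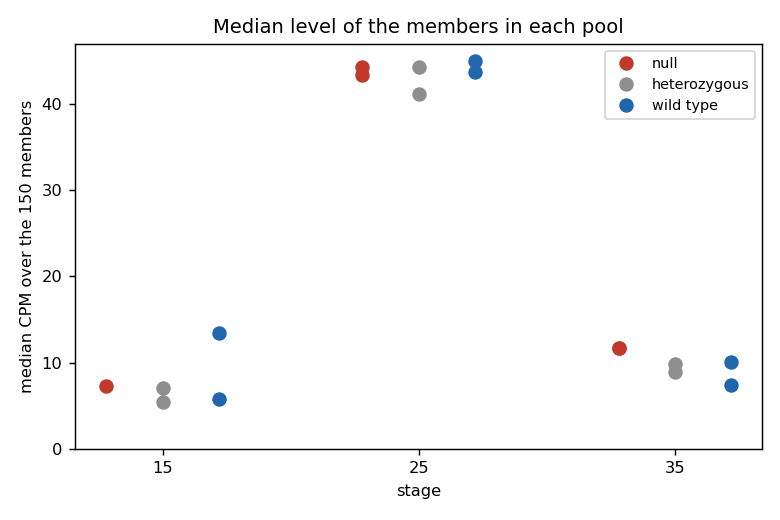
Median level of the 150 members in each pool, in CPM scaled by library factors, at stages 15, 25 and 35 (points are pools; null, heterozygous and wild type run left to right within a stage). Medians lay between 41.2 and 45.0 CPM in all stage 25 pools, and the second stage 15 wild type pool lay highest of its stage at 13.4 CPM.

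Median levels of members at stage 25 lay close together in the 3 genotypes. The median member stood at 43.3 and 44.3 CPM in stage 25 null pools, 44.3 and 41.2 CPM in heterozygous pools, and 43.7 and 45.0 CPM in wild type pools. Members together took 1.99% and 2.16% of the counts in stage 25 null pools, and 1.91% and 2.07% in those of wild type. The peak score, computed as in the rule, had a median of 1.49 in null pools and 1.49 in wild type pools, beside -0.43 and -0.46 over all tested genes. It was above 0 for 143 members in null pools and for all but 1 in wild type pools. Both stage 25 pools lay above every stage 15 and stage 35 pool for 139 members in null embryos, against 12.5% of all tested genes. In wild type this held for 144 members, against 10.2%. Null peak scores and this null count rest on 1 stage 15 pool, so the null criterion had fewer pools to exceed than that of wild type. Of the members, 94 (62.7%) were also among the top 150 by null peak score and 107 (71.3%) among the top 150 by wild type peak score.

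In direct comparison at stage 25, null and wild type pools differed in 1 member. ahnak2, which encodes a large scaffold protein, stood at 13.1 and 20.1 CPM in null pools, 12.7 and 9.49 CPM in heterozygous pools and 4.26 and 4.54 CPM in wild type pools. Null and wild type pools did not overlap. The log2 fold change was 1.91 (SE 0.45, edgeR adjusted p 0.0403). Calls in that direction were 0.789% of all tested genes. No member was called lower, against 0.986% of all tested genes. An unadjusted edgeR p under 0.05 was found for 5 of the 150 members, against 2423 of the 17742 tested genes. The DESeq2 Wald test called the same numbers of members higher and lower. The median log2 fold change of members was 0.05. Both null pools lay above both wild type pools for 28 members (20.4% of all tested genes) and below for 21 (21.9% of all tested genes). This single call was lost in 9 of 22 alternative settings, among them leaving out either stage 25 null pool, with an edgeR adjusted p of 0.00141 to 0.273 over all 22.

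The next question was whether the peak fades by stage 35. In null pools 129 members fell between stages 25 and 35, against 21.1% of all tested genes, and in wild type pools 143 fell, against 22.5%. In null pools 1 member, gpr84, rose (background 23.3%), and in wild type pools none did. The median log2 fold change was -1.86 in null pools and -2.10 in wild type pools, while all tested genes had medians of 0.01 and 0.00. Both steps, the rise and the fall, were called for 114 members in null pools (2.54% of all tested genes) and 131 in wild type pools (3.47%); the 2 steps share the stage 25 pools. Without the first stage 15 wild type pool the wild type count was 103, and without the second it was 141.

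**Figure D2:**
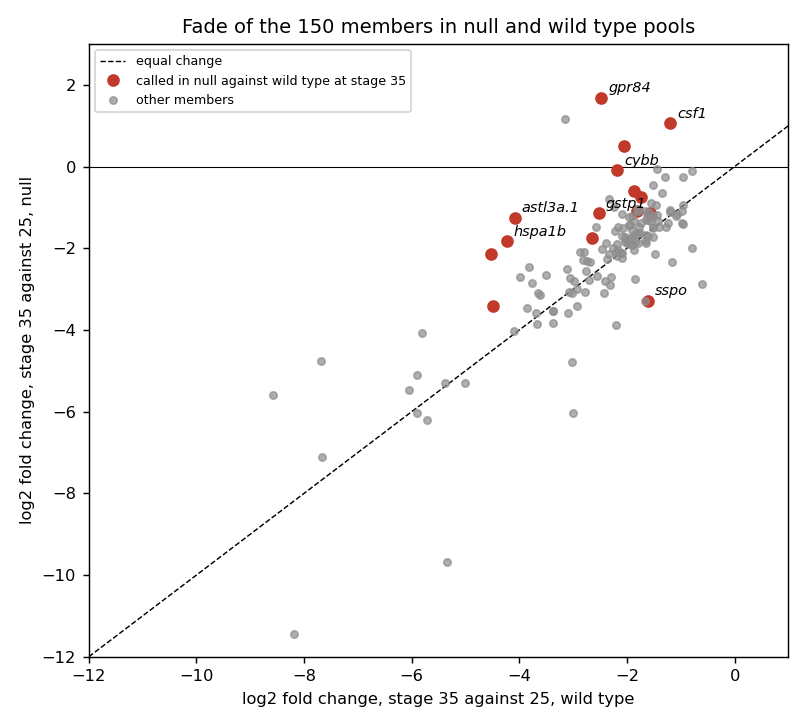
Log2 fold change between stages 35 and 25 in null pools (vertical axis) and wild type pools (horizontal axis) for the 150 members. Red points are the 15 members called between these genotypes at stage 35; the dashed line marks equal change. All members lie below 0 in wild type, and 4 lie above 0 in null pools.

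At stage 35 most members stood higher in null pools than in wild type pools, by a small median amount. The log2 fold change was positive for 104 members (69.3%) and for 47.2% of all tested genes, with medians of 0.33 and -0.03. Both null pools lay above both wild type pools for 69 members (46.0%; 27.8% of all tested genes), and below for 22 (14.7%; 32.7% of all tested genes). edgeR called 14 members higher in null pools, 9.33% of members against 4.80% of all tested genes, and 1 lower, against 4.95%. The second stage 35 wild type pool lay lowest of that stage, with a median member at 10.03 CPM in the first wild type pool and 7.35 CPM in the second. In null pools the median member stood at 11.6 and 11.7 CPM, and in heterozygous pools at 8.87 and 9.85 CPM.

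Those 14 calls depended on single libraries. Leaving out the first stage 35 null pool gave 5; there were 3 without the second, and also 3 when the second stage 35 wild type pool was left out. The count was 25 or 23 without the first or second stage 15 wild type pool. Shares of all tested genes called in the same fits are not given here. These counts therefore do not show whether calls changed more among members than among genes at large. Of the 15 calls, gpr84 and csf1 were made in all 22 alternative settings. The other 13 were each lost in 1 to 13 of them. By leave-outs, csf1 had an edgeR adjusted p of at most 0.0244 and gpr84 of at most 0.0354.

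Genes that fell as far but ranked below the members were examined for comparison. Outside the members, 577 genes had fallen at least as far in heterozygous pools between stages 25 and 35 as the last member, with a rise below the limit of the ranking, so that some of them, such as vstm5, also stood highest at stage 25. This set was formed after the values had been seen. Of these, 78 (13.5%) were called higher and 9 (1.56%) lower in null against wild type pools at stage 35, with a median of 0.31. The share was larger than the 9.33% of members, and that difference was not tested. The place of the null pools nearer stage 25 on the first principal component moves with both sets, and its part in the result was not tested.

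The difference in fade itself was called for no member. In the contrast of the 2 changes, null minus wild type, the median over members was 0.21. It was 0.22 over the 577 other genes that fell as far and -0.02 over all tested genes. An unadjusted edgeR p under 0.05 was found for 19 of the 150 members, against 1562 of the 17742 tested genes. The edgeR adjusted p was under 0.05 for 0 of 150, against a background of 0.113% for positive and 0.0282% for negative calls. With the DESeq2 Wald test 3 members were called, cybb, gpr84 and hspa1b, and without a filter on low counts edgeR called 10. Shares over all genes under these 2 settings are not given here. A call in null pools at stage 35 is therefore not shown to be a different fade.

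**Figure D3:**
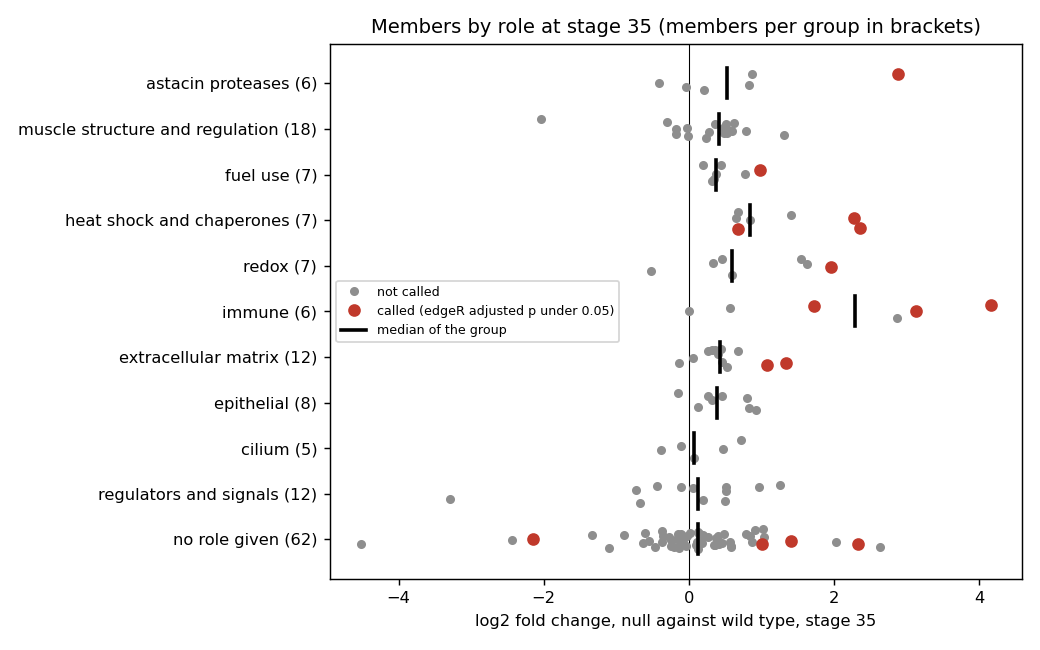
Log2 fold change between null and wild type pools (null over wild type) at stage 35 for each member (points), by functional group with its number of members in brackets. Red points are members called by edgeR and vertical bars are group medians. The immune group has the highest median, at 2.29, and includes genes near or at 0 CPM at this stage. The 12 regulators and signals have a median of 0.12 with none called.

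Astacin proteases had the steepest falls of the 10 groups by stage 35, with a median log2 fold change of -5.29 in null pools and -5.91 in wild type pools. All 6 rose in both genotypes by stage 25. By stage 35, 5 fell in null pools and 6 in wild type pools. Of all members, chosen for a peak in heterozygous pools, 88.7% rose and 86.0% fell in null pools. In wild type pools 91.3% rose and 95.3% fell. Among all tested genes 17.2% rose and 21.1% fell in null pools, and 23.4% and 22.5% in wild type pools. Rises and falls in the groups below stand beside these shares. astl2g stood at 1.42 CPM in the null pool, 1.47 and 1.2 CPM in heterozygous pools and 0.808 and 13.5 CPM in wild type pools of stage 15. At stage 25 it stood at 99.6 and 162 CPM in null, 139 and 202 CPM in heterozygous and 160.1 and 156 CPM in wild type pools. By stage 35 it was at 3.48 and 0.29 CPM in null, 0.383 and 1.14 CPM in heterozygous and 4.44 and 0.682 CPM in wild type pools. Levels were thus low, high and low again in every genotype but for the second stage 15 wild type pool, with null and wild type pools overlapping at stages 25 and 35. The log2 fold change between stages 35 and 25 was -6.04 (SE 0.95, edgeR adjusted p 1.53e-04) in null pools and -5.91 (SE 0.93, edgeR adjusted p 1.29e-04) in wild type pools. Leaving out either stage 35 pool of the genotype gave -8.79 and -5.24 in null pools and -7.82 and -5.15 in wild type pools.

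Its relative astl3a.1 kept a raised level in null pools. It stood at 4.66 CPM in the null pool, 2.05 and 2.56 CPM in heterozygous and 1.94 and 33 CPM in wild type pools of stage 15. Stage 25 values were 277 and 416 CPM in null, 425 and 395 CPM in heterozygous and 356 and 311 CPM in wild type pools. Stage 35 values were 143 and 147 CPM in null, 15.7 and 25.5 CPM in heterozygous and 32.1 and 6.89 CPM in wild type pools. At stage 35 both null pools were above both wild type pools, while the stage 25 pools overlapped. Null against wild type at stage 35 gave a log2 fold change of 2.89 (SE 0.77, edgeR adjusted p 0.0278), the fall by stage 35 in null pools was -1.26 (edgeR adjusted p 0.164) and the difference in fade was 2.83 (SE 1.03, edgeR adjusted p 0.387). The stage 35 call was lost without the first stage 35 null pool, the second stage 35 null pool or the second stage 35 wild type pool (edgeR adjusted p of 0.0956 to 0.229), and the log2 fold change was 4.37 without the first stage 35 wild type pool and 2.18 without the second.

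The neighbouring astl3a.3 did not separate at that stage. It stood at 44.4 and 29.3 CPM in null pools, 11.1 and 18.5 CPM in heterozygous pools and 53.8 and 9.77 CPM in wild type pools, and null and wild type overlapped. For tll1, whose relatives release growth factors from their inhibitors and process collagen, stage 35 values were 4.19 and 4.2 CPM in null pools, 0.612 and 1.22 CPM in heterozygous pools and 3.64 and 0.833 CPM in wild type pools. Null and wild type tll1 did not overlap, but the difference of 0.88 (edgeR adjusted p 0.274) was not called. Of the 10 cement gland and hatching gland genes tested, astl3a.1 was the only member. In null pools at stage 35, 1 of the 10 was called higher and 1 lower, against 4.80% and 4.95% of all tested genes.

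Muscle genes formed the largest group, and most fell by stage 35 in both genotypes, as did most members. Of the 18, 17 rose by stage 25 and 17 fell by stage 35 in null pools, while 16 rose and 18 fell in wild type pools. Over all members 88.7% rose and 86.0% fell in null pools, and 91.3% rose and 95.3% fell in wild type pools. None was called between null and wild type at stage 35, and the median of that difference was 0.42 with 12 of 18 positive. Over all members 69.3% were positive, and over all tested genes 47.2%. myf6, a regulator of myogenic differentiation of the MyoD family, stood at 42.7 and 62.1 CPM in null, 42.8 and 37 CPM in heterozygous and 38.4 and 62.6 CPM in wild type pools at stage 25. At stage 35 it stood at 5.54 and 6.66 CPM in null, 5.43 and 4.62 CPM in heterozygous and 4.38 and 3.64 CPM in wild type pools. It thus fell in each genotype, with log2 fold changes of -3.10 in null and -3.65 in wild type pools. The most abundant, the myosin heavy chain gene myh4, stood at 2896 and 2649 CPM in null pools and 2802 and 2620.3 CPM in wild type pools at stage 25. By stage 35 myh4 stood at 1073 and 981 CPM in null pools and 808 and 599.9 CPM in wild type pools. The lowest of the group in null pools was mustn1, a small muscle and skeletal protein gene, at 0.472 and 0.507 CPM in null, 1.76 and 2.27 CPM in heterozygous and 2.15 and 1.89 CPM in wild type pools of stage 35, and its difference of -2.04 (edgeR adjusted p 0.0891) was not called. In the list of 15 tested myogenic genes, which holds myf6, 1 was called higher and 2 lower in null pools at stage 35. Shares over all tested genes were 4.80% and 4.95%. In that list 3 genes peaked in each genotype, against 2.54% of all tested genes in null pools and 3.47% in wild type pools.

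Genes of sugar and glycogen use in muscle followed the same course. All 7 rose and all 7 fell in both genotypes, and the stage 35 difference was positive for all 7, with a median of 0.38. It was also positive for 69.3% of all members, 70.7% of the other genes that fell as far and 47.2% of all tested genes. These 7 were grouped after the members had been seen. pgam2, a glycolytic enzyme of muscle, stood at 410.1 and 579 CPM in null, 354 and 336 CPM in heterozygous and 386 and 491 CPM in wild type pools at stage 25. At stage 35 it stood at 80.2 and 93.3 CPM in null, 70.1 and 58.6 CPM in heterozygous and 63.3 and 38.1 CPM in wild type pools, a difference of 0.77 (edgeR adjusted p 0.303) between null and wild type that was not called although these pools did not overlap. The glucose transporter gene slc2a4 was called at stage 35, at 43.3 and 32.8 CPM in null, 24.1 and 19.9 CPM in heterozygous and 18.5 and 20.3 CPM in wild type pools, with a log2 fold change of 0.97 (SE 0.29, edgeR adjusted p 0.0465). This call was lost in 9 of 22 alternative settings, with an edgeR adjusted p of up to 0.300 without the first stage 35 null pool.

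Of the 7 heat shock and chaperone genes, 3 were called higher in null pools at stage 35, against 4.80% of all tested genes. The log2 fold change was positive for all 7, against 69.3% of all members and 47.2% of all tested genes, with a median of 0.84. The group was formed after the members had been seen, and its counts depend on which genes were placed in it. Chaperone-related members outside it included hspb7, dnajc5b and ptges3l. Their mean stage 35 levels, as CPM of the member rule, were 8.74, 0.761 and 14.3 in null pools. In wild type pools they were 9.81, 1.61 and 12.7. At stage 15 hspa1b stood at 1.42 CPM in the null pool, 0.819 and 1.57 CPM in heterozygous pools and 1.02 and 0.658 CPM in wild type pools. At stage 25 the values were 14.7 and 19.7 CPM in null, 19.5 and 26 CPM in heterozygous and 15 and 20.5 CPM in wild type pools. At stage 35 they were 3.42 and 6.3 CPM in null, 0.842 and 1.3 CPM in heterozygous and 0.673 and 1.21 CPM in wild type pools. Null and wild type pools of hspa1b overlapped at stage 25 and did not at stage 35. The log2 fold change at stage 35 was 2.36 (SE 0.45, edgeR adjusted p 0.00458), a call lost without the second stage 35 null pool (edgeR adjusted p 0.0647). The gene still fell by stage 35 in null pools, with a log2 fold change of -1.83 (edgeR adjusted p 0.00114), against -4.24 (edgeR adjusted p 3.26e-06) in wild type pools. Its relative hsp70 had a stage 35 log2 fold change of 2.28 (SE 0.62, edgeR adjusted p 0.0305), and dnaja4.1, a co-chaperone of the DnaJ family, one of 0.68 (SE 0.20, edgeR adjusted p 0.0468). The call of hsp70 was lost without the first stage 35 null pool, the second stage 35 null pool, the first stage 35 wild type pool or the second stage 35 wild type pool (edgeR adjusted p of 0.0701 to 0.175), and that of dnaja4.1 in 9 of 22 settings, among them leaving out any stage 35 null or wild type pool. hsp90aa1.2 stood at 2.83 and 3.69 CPM in null pools, against 1.08 and 1.36 CPM in wild type pools, and was not called, with a log2 fold change of 1.41 (edgeR adjusted p 0.111).

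Of the 7 redox genes, which make or use glutathione and thioredoxin or respond to oxidants, 3 fell in null pools by stage 35 and 7 in wild type pools. gstp1, a glutathione transferase gene, stood at 1.66 CPM in the null pool, 1.39 and 2.71 CPM in heterozygous and 2.96 and 15 CPM in wild type pools of stage 15. At stage 25 it stood at 250.4 and 504 CPM in null, 377 and 353 CPM in heterozygous and 183 and 322 CPM in wild type pools. By stage 35 the level was 153 and 188 CPM in null, 34 and 70.1 CPM in heterozygous and 53.2 and 34.3 CPM in wild type pools. Both stage 35 null pools lay above both wild type pools, and stage 25 pools overlapped. The stage 35 log2 fold change was 1.96 (SE 0.52, edgeR adjusted p 0.0275), a call lost without the first stage 35 null pool, the second stage 35 null pool, the first stage 35 wild type pool or the second stage 35 wild type pool (edgeR adjusted p of 0.0584 to 0.227). txn, the thioredoxin gene, stood at 40.03 and 52.1 CPM in null pools, 11.5 and 23.9 CPM in heterozygous pools and 23.8 and 7.42 CPM in wild type pools of stage 35, a difference of 1.55 (edgeR adjusted p 0.072) that was not called. osgin1, an oxidative stress response gene, stood at 2.3 and 2.39 CPM in null, 0.842 and 0.73 CPM in heterozygous and 0.673 and 0.833 CPM in wild type pools, also not called, with a log2 fold change of 1.63 (edgeR adjusted p 0.0936). The difference of fade was called for none of these 7, so the unequal counts of falls do not show a different fade.

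**Figure D4:**
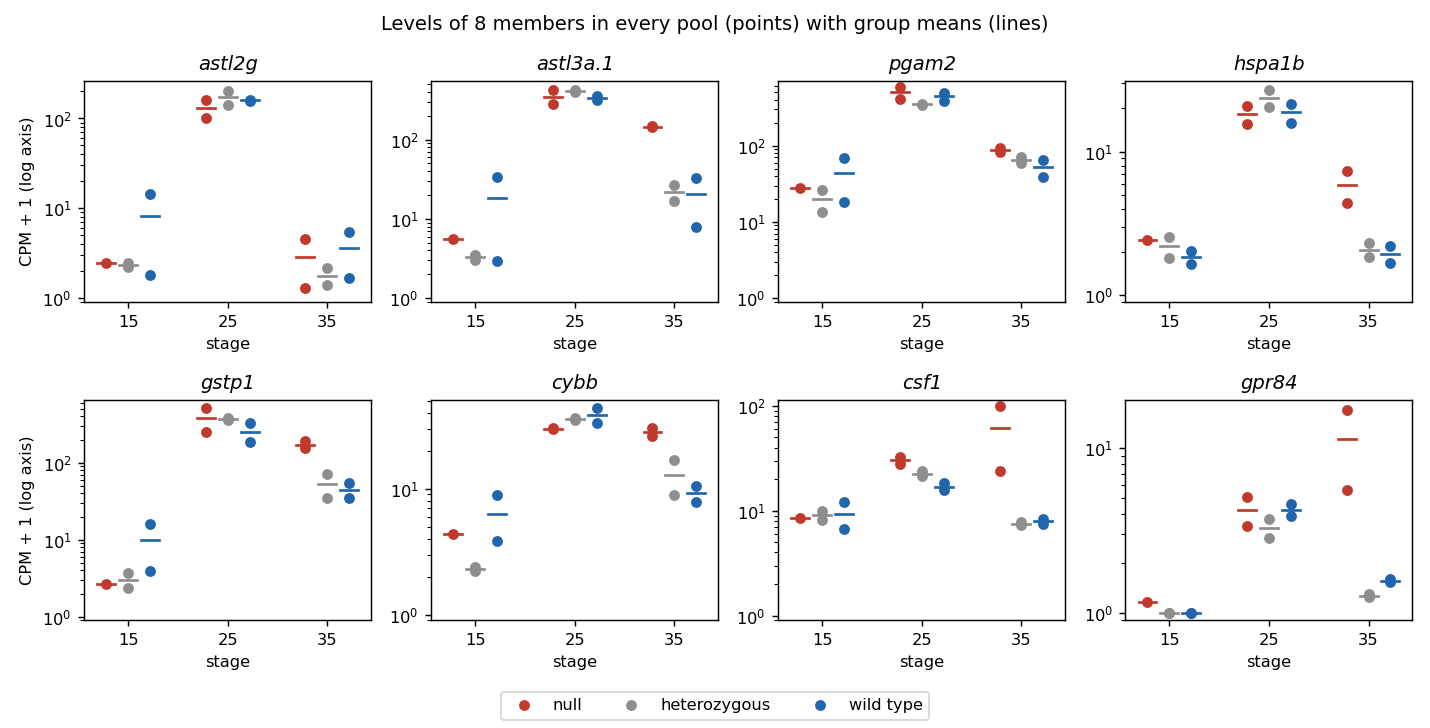
Levels of 8 members in every pool at stages 15, 25 and 35, as CPM plus 1 on a log axis (points are pools, short lines group means; null, heterozygous and wild type run left to right within a stage). astl2g fell to a few CPM in all genotypes by stage 35, while csf1 and gpr84 were higher in both stage 35 null pools than in either wild type pool of that stage.

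Immune genes had the highest median difference of the 10 groups at stage 35, 2.29, with 3 of 6 called higher, against 4.80% of all tested genes. This small group was formed after the members had been seen, and its figures depend on which genes were placed in it. Its median lies between the values of cybb and of ltb4r, which was low throughout and not called. Another of the 6, cd40lg, had no counts in any stage 35 pool. Of the 6, 1 rose and 1 fell in null pools between stages 25 and 35, while 5 fell in wild type pools. The wild type fall of csf1 was lost in 14 of 22 alternative settings. edgeR called the difference of fade for none of the 6, so the unequal counts of falls do not show a different fade. csf1 encodes a growth factor of macrophages. At stage 15 it stood at 7.59 CPM in the null pool, 7.13 and 8.92 CPM in heterozygous pools and 5.65 and 11.1 CPM in wild type pools. At stage 25 it stood at 31.7 and 27 CPM in null, 22.7 and 20.3 CPM in heterozygous and 14.6 and 17.3 CPM in wild type pools. Stage 35 levels were 23 and 99.4 CPM in null, 6.81 and 6.24 CPM in heterozygous and 6.53 and 7.35 CPM in wild type pools. Null pools lay above wild type pools at both later stages, the stage 25 difference was not called, with a log2 fold change of 0.88 (edgeR adjusted p 0.422), and the 2 stage 35 null pools differed widely from each other. The stage 35 log2 fold change was 3.14 (SE 0.49, edgeR adjusted p 0.00137), and it was 1.72 without the second stage 35 null pool and 3.82 without the first.

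gpr84 encodes a receptor for medium-chain fatty acids known from myeloid cells of mammals. It had no counts in heterozygous and wild type pools at stage 15 and 0.158 CPM in the null pool. By stage 25 its level was 2.36 and 4.03 CPM in null, 1.85 and 2.7 CPM in heterozygous and 2.86 and 3.56 CPM in wild type pools. Against the stage 15 wild type floor of 3 counts per library, wild type gpr84 was at least 16.9-fold higher at stage 25. At stage 35 it stood at 4.6 and 16.1 CPM in null, 0.306 and 0.243 CPM in heterozygous and 0.606 and 0.53 CPM in wild type pools. Null pools thus held more gpr84 at stage 35 than at stage 25, while wild type pools held less. Null against wild type at stage 35 gave a log2 fold change of 4.16 (SE 0.65, edgeR adjusted p 0.00179), and it was 2.99 without the second stage 35 null pool and 4.79 without the first. The change by stage 35 was 1.69 (SE 0.54, edgeR adjusted p 0.0224) in null pools and -2.48 (SE 0.64, edgeR adjusted p 0.00655) in wild type pools, and the call in null pools was lost without the first stage 25 null pool or the second stage 35 null pool (edgeR adjusted p of 0.142 and 0.546).

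cybb, the gene of the membrane subunit of the phagocyte NADPH oxidase, was not called lower by stage 35 in null pools, with a log2 fold change of -0.10 (edgeR adjusted p 0.846), against -2.19 (edgeR adjusted p 2.70e-04) in wild type pools. It stood at 28.8 and 29.2 CPM in null, 34.1 and 35.5 CPM in heterozygous and 32 and 42.9 CPM in wild type pools at stage 25. Stage 35 levels were 29.1 and 25.1 CPM in null, 7.88 and 15.9 CPM in heterozygous and 9.5 and 6.89 CPM in wild type pools. Stage 25 null pools lay below wild type and stage 35 null pools above it, a stage 35 log2 fold change of 1.72 (SE 0.37, edgeR adjusted p 0.0102), a call lost without the first stage 35 null pool or the second stage 35 wild type pool (edgeR adjusted p of 0.0714 and 0.126). The leukotriene receptor gene ltb4r was low throughout, at 1.36 and 1.81 CPM in null, 0.23 and 0.243 CPM in heterozygous and 0.404 and 0 CPM in wild type pools of stage 35, and its difference of 2.86 (SE 0.87, edgeR adjusted p 0.0546) was not called. cd40lg, a ligand gene known from mammalian T cells, had no counts in any stage 35 pool. At stage 25 cd40lg stood at 0.405 and 0.367 CPM in null, 2.35 and 1.35 CPM in heterozygous and 3.1 and 3.07 CPM in wild type pools, with null below wild type pools and the difference not called, with a log2 fold change of -2.97 (edgeR adjusted p 0.0565).

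Blood and myeloid genes outside the members were set beside these values. Of 20 tested genes of the primitive blood and myeloid list, 1 (spib) was called higher and 0 lower in null pools at stage 35. Shares over all tested genes were 4.80% and 4.95%. The median log2 fold change of the 20 was 0.23. Their summed level was 1944 and 1911 CPM in stage 35 null pools, 1071 and 2455 CPM in heterozygous pools and 1443 and 876 CPM in wild type pools. The alpha globin gene hba3 made up most of that sum, at a mean of 1464 CPM in stage 35 null pools and 768 CPM in wild type pools. None of the 20 was at 0 in any stage 35 pool. The list mixes red blood cell, vessel and white blood cell genes, so its median need not stand for any 1 of these. White blood cell genes, sorted out after the values were seen, had stage 35 log2 fold changes of 1.70 (spib), 1.13 (mmp7), 0.94 (mmp9.1) and 0.68 (lcp1). Those of mpo, cebpe, cebpa and spi1 were 0.67, 0.34, 0.26 and 0.20, and that of coro1a was -0.65. The only member in the list, etv2, a regulator of the first blood and vessel precursors, stood at 78.6 and 69.9 CPM in null and 79.6 and 84.5 CPM in wild type pools at stage 25. By stage 35 etv2 stood at 17.5 and 16.4 CPM in null and 14.8 and 17.8 CPM in wild type pools. Whether the number of such cells had a part in the immune group's levels was not tested.

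Matrix genes mostly faded in both genotypes, 10 of 12 in null pools and 11 of 12 in wild type pools. Of all members 86.0% fell in null pools and 95.3% in wild type pools. Of the 12, optc and timp-1 were called higher in null pools at stage 35, against 4.80% of all tested genes. optc encodes the small matrix protein opticin and stood at 5.54 and 5.07 CPM in null, 2.6 and 2.03 CPM in heterozygous and 2.63 and 1.51 CPM in wild type pools, a difference of 1.34 (SE 0.38, edgeR adjusted p 0.0369). timp-1 encodes an inhibitor of matrix metalloproteases and stood at 43 and 68 CPM in null, 22.8 and 36.4 CPM in heterozygous and 24.4 and 28 CPM in wild type pools, a difference of 1.08 (SE 0.26, edgeR adjusted p 0.0169). Null pools lay above wild type pools for both genes. The call of optc was lost without the first stage 35 null pool, the second stage 35 null pool or the second stage 35 wild type pool (edgeR adjusted p of 0.124 to 0.291), and that of timp-1 without the second stage 35 null pool, the first stage 35 wild type pool or the second stage 35 wild type pool (edgeR adjusted p of 0.0915 to 0.219). The elastin gene eln2, with a heterozygous peak score of 1.60, stood at 479.7 and 457 CPM in null and 458 and 390.5 CPM in wild type pools at stage 25. At stage 35 eln2 stood at 151.8 and 117 CPM in null and 101 and 109 CPM in wild type pools, and the difference of 0.35 (edgeR adjusted p 0.723) was not called.

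Epithelial, ciliary and regulatory members gave no call between null and wild type at stage 35. Of the 8 epithelial genes, 7 fell in null pools and 8 in wild type pools, with a median stage 35 difference of 0.39. The abundant epidermal gene fucolectin stood at 1884 and 2443 CPM in null and 1821 and 2096 CPM in wild type pools at stage 25. By stage 35 it stood at 968 and 899 CPM in null and 661 and 386 CPM in wild type pools, with null pools above wild type and the difference of 0.84 (edgeR adjusted p 0.122) not called. Of the 5 cilium genes, 4 fell in each genotype and the median difference was 0.07. Of the 12 regulators and signals, 11 fell in null pools and 12 in wild type pools, with a median difference of 0.12.

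Among the regulators, ripply3, a co-repressor gene of pharyngeal and placodal tissue, was the only member among 39 tested genes of Notch signalling and segmentation. It stood at 83.2 and 79.6 CPM in null, 71.8 and 98.2 CPM in heterozygous and 114 and 91.4 CPM in wild type pools at stage 25. At stage 35 ripply3 stood at 16.3 and 9.41 CPM in null, 11.6 and 8.68 CPM in heterozygous and 9.23 and 8.79 CPM in wild type pools, and its difference of 0.52 (edgeR adjusted p 0.237) was not called. In that list 4 genes peaked in null pools and 2 in wild type, against 2.54% and 3.47% of all tested genes. At stage 35, 6 of the 39 were called higher and 2 lower in null pools, against 4.80% and 4.95% of all tested genes. nodal1, a signal of the TGF-beta family, stood at 24.3 and 20.8 CPM in null and 22.3 and 24 CPM in wild type pools at stage 25 and was near 0 in every stage 35 pool. It was at least 114-fold lower at stage 35 than at stage 25 in null pools and at least 108-fold lower in wild type pools, at a floor of 3 counts per library. No member belonged to the lists of multiciliated cell, early neurogenesis, neural crest, or placode, kidney and heart genes. Of those lists, 0 of 21, 0 of 25, 0 of 15 and 2 of 26 tested genes peaked in null pools, and 1, 0, 0 and 2 in wild type pools. In null against wild type pools at stage 35 they had 0, 0, 0 and 2 called higher and 0, 3, 0 and 1 called lower. Over all tested genes 2.54% peaked in null and 3.47% in wild type pools, and 4.80% were called higher and 4.95% lower.

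Other named members had no group. sspo encodes SCO-spondin, a giant protein secreted by midline cells of the neural tube, and was the only member called lower in null pools at stage 35. At stage 25 it stood at 43.8 and 59.4 CPM in null, 64.4 and 76.7 CPM in heterozygous and 76.3 and 67.2 CPM in wild type pools. At stage 35 sspo stood at 5.78 and 4.78 CPM in null, 21.3 and 14 CPM in heterozygous and 16 and 31.1 CPM in wild type pools. Null pools lay below wild type pools at both stages, and the stage 35 log2 fold change was -2.15 (SE 0.59, edgeR adjusted p 0.0324), against -0.47 (edgeR adjusted p 0.765) at stage 25. The stage 35 call was lost without the first stage 35 null pool, the second stage 35 null pool or the second stage 35 wild type pool (edgeR adjusted p of 0.147 to 0.254). Also called, both higher, were nmral1 at 1.41 (edgeR adjusted p 0.0184) and myoc at 1.01 (edgeR adjusted p 0.0462). The call of nmral1 was lost without the first stage 35 null pool, the second stage 35 null pool or the second stage 35 wild type pool (edgeR adjusted p of 0.066 to 0.187), and that of myoc in 13 of 22 settings.

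Some members had low peak scores in wild type or in null pools. Among the 3 lowest peak scores in wild type were those of bhlha9 (-0.18) and ahnak2 (0.39). In null pools these 2 genes had peak scores of 1.68 and 2.33. bhlha9, a transcription factor gene known from limb buds, stood at 1.35 and 6.65 CPM in wild type pools at stage 15, 2.98 and 3.38 CPM at stage 25 and 0.943 and 1.06 CPM at stage 35. Its second stage 15 wild type pool was the highest of these 6 values, and the other stage 15 pool was below both stage 25 pools. The lowest peak scores in null pools belonged to gpr84 (-1.58), csf1 (-1.18) and ltb4r (-0.70), immune genes whose mean null level was higher at stage 35 than at stage 25. For csf1 the higher mean rested on the second stage 35 null pool, as the first lay below both stage 25 null pools. In wild type pools the peak scores of gpr84, csf1 and ltb4r were 1.38, 0.96 and 1.27.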

How the data were processed

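Whole-embryo RNA had been extracted from pools of 5 embryos and made into stranded polyA-selected libraries, per the labels' protocols. The authors deposited 1 table of raw read counts per gene for each of 17 libraries, whole numbers with no scaling. The submitters' processing notes name bcl2fastq 2.20 and STAR; the counting program, genome build, annotation and use of strand are not given in the sources used here. Counts of near-identical or overlapping genes are therefore uncertain, no coordinates are given, and promoter sequence was not used here. RefSeq names (UCB_Xtro_10.0) matched 26530 of 26531 gene names and all 150 members, and served for gene order only.

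Genes were filtered with filterByExpr of edgeR 4.0.16 in R 4.3.3 (minimum count 10, minimum total 15). CPM values in the text, other than those of the member rule, use library sizes multiplied by TMM factors over all 17 libraries, 0.869 to 1.11. Groups were compared with edgeR's two-sided quasi-likelihood test in 1 fit of 16 libraries and 8 groups (8 residual degrees of freedom, common dispersion 0.0427), and p-values were adjusted by Benjamini-Hochberg over 17742 genes, with calls at an adjusted p under 0.05. The rise in null pools came from the same model with all 17 libraries. Standard errors (SE) were derived from each log2 fold change and its F statistic. A group with 3 or fewer counts in each library was taken as at the floor, and bounds cover counting error only. DESeq2 1.42.0 was an alternative, and the script was tested on simulated data.

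The 22 alternatives for single genes were other scaling (DESeq2 size factors), the DESeq2 Wald test, no filter, a replicate block, fits of only the libraries compared, and leaving out each library. Counts were also repeated with members chosen by other settings. Replicates of each group differed by more than counting noise (chi-square per degree of freedom 11.6 to 57.4).

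Members, functional groups and gene lists were chosen with earlier results of these data known. Genes named in the text were the 10 highest scores, members called between null and wild type (up to 8 a direction and stage by size), the 3 lowest scores in each genotype, list members and the names just inside and outside the limit of the ranking; other members were named as examples of their functional group or because they completed the list of calls, after their values were seen. A few members that the rule names are not reported here.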

Additional observations from a re-analysis of the deposited data

Results flagged for a closer look

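Of the members, 2 moved in opposite directions in the genotypes between stages 25 and 35, with every null pool of stage 35 above the stage 25 null pools and every wild type pool of stage 35 below the stage 25 wild type pools. For gpr84 the change in null pools minus that in wild type pools was 4.17 on the log2 scale (SE 0.84, unadjusted p 0.000247, edgeR adjusted p 0.0826). For ltb4r the difference was 4.31 (SE 1.15, unadjusted p 0.00230, edgeR adjusted p 0.213), from levels of 0.607 and 0.795 CPM in null and 1.52 and 2.33 CPM in wild type pools at stage 25 and 1.36 and 1.81 CPM in null and 0.404 and 0 CPM in wild type pools at stage 35. Neither difference passed adjustment over all genes. The 2 were picked out after the values had been seen. The share of all tested genes that meet the same criterion is not given here, so the count of 2 is a description only.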

How the results depend on the processing

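With 2 pools a group, calls near the threshold depend on single libraries. For the alternatives below, shares over all tested genes are not given, so the counts describe the members only. The counts of rises, falls and peaks in either genotype stayed within 1.5 times their reported values under every alternative run on the 150 members or on another 150, and as shares of the set for the top 75 and top 300. The reported counts were too near the size of the set to exceed that limit, so only losses could have broken it. In wild type the top 75 gave 73 rises, 73 falls and 71 peaks and the top 300 gave 237, 263 and 218; in null pools these were 73, 69 and 67, and 219, 224 and 174. Leaving out 1 library gave 106 to 145 rises, 123 to 146 falls and 103 to 141 peaks in wild type, and 117 to 140 rises, 112 to 135 falls and 90 to 126 peaks in null pools. It gave 3 to 25 members higher and 0 to 3 lower in null pools at stage 35, 0 to 1 higher and 0 to 1 lower at stage 25, and 0 to 4 for the difference in fade. The median difference at stage 25 was -0.057 without the second stage 25 null pool, the reverse of the reported direction, and at most 0.11 over all leave-outs.

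Without the filter on low counts, 26 members were higher and 2 lower in null pools at stage 35, 2 higher and 1 lower at stage 25, and 10 differed in fade. With only the libraries compared, 2 were lower at stage 35, 2 higher and 2 lower at stage 25, and 1 differed in fade. The DESeq2 Wald test gave 2 lower at stage 35 and 3 for fade. Members chosen from the second heterozygous pools gave 3 lower at stage 35 and 0 higher at stage 25, from the first pools 2 higher at stage 25, with a pseudocount of 5 0 higher at stage 25, and the top 75 gave 1 lower at stage 35 and 1 higher at stage 25. The cause was not tested. These sets shared 119, 118, 121 and 75 names with the members.

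Replicate numbers did not consistently pair the pools: deviations of same-numbered pools correlated over 0.1 in 8 of 28 pairs of groups. Correlations ran from -0.438 to 0.224. The lowest were between heterozygous and wild type pools of the same stage, -0.438 at stage 35 and -0.349 at stage 15. Whether pools with different numbers were related was not tested. With the replicate block 138 members rose and 141 fell in wild type, 126 rose and 128 fell in null pools, 12 were higher and 1 lower in null pools at stage 35, and 0 were called at stage 25.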
